A study of Xenopus laevis with 6 samples.

Results

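Cycloheximide was compared with no cycloheximide in whole Xenopus laevis embryos of the same age, 7.5 h post fertilization (hpf). The RNA sequenced was pulled down through a label that embryos build into new transcripts. The comparison sets 2 cycloheximide libraries (CHX) against 2 control libraries, 4 of the 6 libraries of the series, and covers the 19149 of 50489 listed genes whose mean value over the 6 libraries was at least 12. All embryos were wild type and came from 1 clutch. Every embryo, controls included, carried 5-ethynyl uridine (EU), given as an injection of 10 nl at 50 mM into the 1-cell embryo and so diluted to about 0.5 mM, and was kept at 22 °C. CHX embryos received 0.2 mg/ml cycloheximide from 5 hpf, labelled blastula, until 7.5 hpf, and the remaining 2 libraries were untreated embryos taken at 5 hpf. The number of embryos behind each library was not given in the sources used here, and RNA was taken from whole embryos, so fewer cells of a type and less RNA per cell cannot be told apart. Because the replicates shared a clutch, the p-values below measure only the spread between these libraries.

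EU is a uridine analogue that RNA polymerases build into new transcripts, which are then coupled to biotin and pulled down; maternal RNA loaded into the egg carries none. The analogue was present from the 1-cell stage, so labelled RNA was whatever had been made since then and had not yet been degraded. Making and decay are not separated. Oocyte maternal genes had summed values between 58403 and 65581 in all 6 libraries, so the captured RNA may include unlabelled maternal RNA. New and carried-over RNA cannot be told apart in these values. Cycloheximide stalls ribosomes at elongation and so stops protein synthesis. Embryos that cannot translate also stop dividing, and whether a zygotic gene responds to maternal protein alone or needs a protein newly made from an earlier zygotic mRNA is classically asked with this drug. In the frog blastula the zygotic genome becomes active at the mid-blastula transition. Vegetal cells then start mesoderm and endoderm genes under nodal signals, animal cells form ectoderm, and BMP and Notch signals later divide the ectoderm into neural and epidermal parts and select single cells within each.

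The values are the authors' normalized reads, whole numbers after scaling, and totals ran from 7072575 to 7742693 in the 4 libraries at 7.5 hpf. The control replicates differed more from each other than the CHX replicates did. The median size of the log2 ratio of replicate 1 to replicate 2 was 0.44 in the controls and 0.30 in CHX over the genes tested. Control replicate 1 listed 22684 genes above 0 and replicate 2 listed 25239, against 25439 and 25264 in CHX. The values of both replicates are therefore given for each gene, always in the order replicate 1, replicate 2. Of 36 listed genes of later differentiated tissues, 28 were at 0 in all 6 libraries. The list's summed value was 64 and 58 in the controls and 523 and 253 in CHX, mainly from both copies of pax6, an eye and forebrain gene: pax6.L had 18 and 0 against 289 and 157, and pax6.S had 0 and 10 against 145 and 69 (limma adjusted p = 0.222 and 0.329).

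Most genes sat close to their control level. The log2 fold change (CHX minus control, on log2 of value plus 1) was within 0.5 of 0 for 67.6% of the genes tested, and for 84.3% of the 11237 genes with a mean value of at least 100. polr2a.S, the largest subunit of RNA polymerase II, had 20781 and 19711 in the controls and 22125 and 20874 in CHX (log2 fold change 0.09 ± 0.14 SE). In limma with Benjamini-Hochberg adjustment over all genes tested, 38 genes rose (0.198%) and 68 fell (0.355%) at an adjusted p under 0.05. At an unadjusted p under 0.05 there were 1576. The fit borrows its spread from all genes, since 2 against 2 libraries alone allow no exact permutation p below 0.333.

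The number of calls depended on single libraries. With control replicate 1, CHX replicate 1 or CHX replicate 2 left out, limma called 0 genes, with 1482, 789 and 951 genes at an unadjusted p under 0.05. Without control replicate 2 it called 100 higher and 104 lower. A fit without the intensity trend called 42 higher and 5 lower, and none of the genes named below as having fallen passed in it. All 106 called genes kept their direction under all 19 alternative settings. Settings that change only the filter, trend, block, weights or 5 hpf libraries leave each log2 fold change as it is. In them the direction could not turn, so its constancy is a description and not support for the calls. A measure without a test is therefore given too: genes whose CHX values were both above, or both below, both control values with at least a 2-fold ratio of the group means, here called apart. By it, 1051 genes were apart and higher (5.49%) and 867 apart and lower (4.53%).

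**Figure D1:**
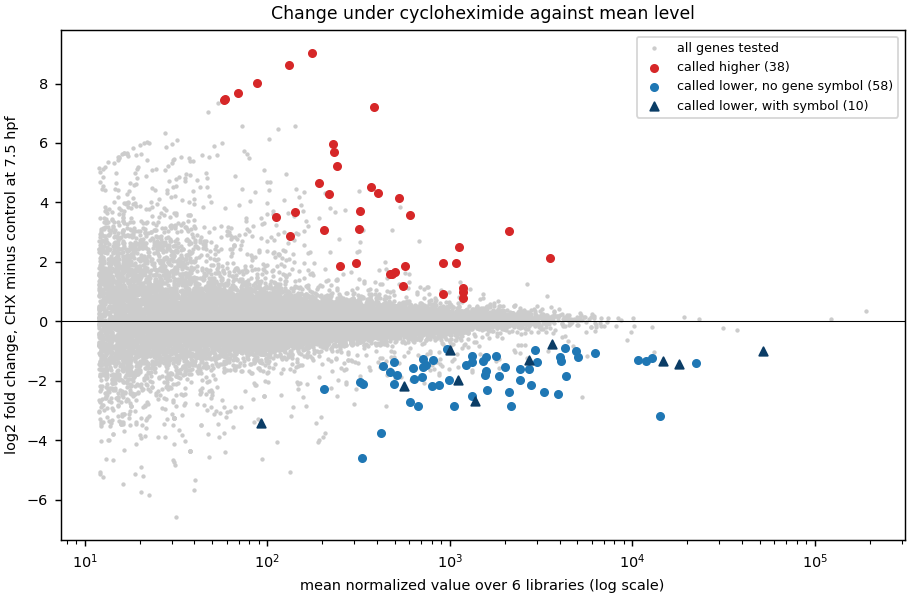
Log2 fold change of CHX against control at 7.5 hpf on the y axis, against the mean normalized value over the 6 libraries on a log x axis, for each of the 19149 genes tested. Grey points are genes that were not called, red points the 38 called higher, blue circles the 58 called lower that have no gene symbol, and dark triangles the 10 called lower that have one. The called lower genes sit mostly at high mean values and the called higher genes lie farther from 0.

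Many of the genes that rose are regulators of ectoderm, in both its neural and its epidermal forms. Of 116 listed genes for ectoderm and neural identity, 94 passed the filter, 17 rose and none fell. Their median log2 fold change was 1.62, against 0.02 for all genes tested, and 55 were apart and higher (58.5% against 5.49% of all genes). Part of that follows from the filter, which a gene silent in controls passes only when CHX is high. Among the 75 members with a control mean of at least 12, 36 were apart and higher, or 48% against 3.25% of all genes with such a control mean, and the median was 1.09. Leaving out each of the 6 libraries in turn moved the median over the 94 between 1.12 and 1.96, and 10 rose without control replicate 2. None of the members was apart and lower.

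Proneural genes, basic helix-loop-helix activators that commit ectoderm cells to a neural fate, were among the most changed. neurog3.S stood at 216 and 83 in the controls and at 1950 and 1360 in CHX (7 and 12 at 5 hpf). neurog1.L went from 2 and 17 to 1500 and 793, and atoh1.S, which specifies sensory hair cells and some hindbrain neurons, from 123 and 34 to 1067 and 693. In all 3 the lower CHX value was above the higher control value several fold. The log2 fold changes were 3.59 ± 0.47 (SE, adjusted p = 0.0153), 7.21 ± 1.02 (adjusted p = 0.0164) and 3.71 ± 0.61 (adjusted p = 0.0275) in that order, by limma.

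Zinc finger factors of neuronal differentiation moved with them. insm1.L had 763 and 487 in the controls and 2733 and 2113 in CHX, a log2 fold change of 1.98 ± 0.22 (limma adjusted p = 0.00786). myt1.L had 15 and 47 in the controls and 373 and 340 in CHX. prdm14.L, of the PRDM family of zinc finger proteins, had 27 and 5 in the controls and 767 and 586 in CHX (2 and 2 at 5 hpf). The control and CHX values did not overlap for any of these genes. myt1.L rose by 3.69 ± 0.55 and prdm14.L by 5.69 ± 0.84 on the log2 scale (limma adjusted p = 0.0192 and 0.0182). neurog2.S, another proneural gene, had 116 and 66 in the controls and 472 and 253 in CHX, but did not pass (adjusted p = 0.0865).

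Homeobox genes of the neural plate border and of epidermis rose as well. dlx5.L was at 0 in both 5 hpf libraries, at 89 and 36 in the 7.5 hpf controls and at 1219 and 1079 in CHX. Both copies of dlx6, the gene next to dlx5 in vertebrates, passed: dlx6.S had 43 and 21 in the controls and 577 and 636 in CHX, and dlx6.L had 22 and 20 against 575 and 533. The changes were 4.31 ± 0.65, 4.29 ± 0.59 and 4.66 ± 0.79 on the log2 scale (limma adjusted p = 0.0195, 0.016 and 0.0332). foxi1.S, a forkhead gene of ectoderm and of ionocytes, had 59 and 34 in the controls and 1169 and 953 in CHX, 4.53 ± 0.64 higher on the log2 scale (adjusted p = 0.0164). Its value, too, was 0 at 5 hpf.

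Xenopus laevis is an allotetraploid whose genes often survive as a pair, marked L and S. Of the called higher genes, 27 had a partner that was also tested. All 27 partners had a positive log2 fold change, 20 were apart and higher (5.49% of all genes were), and 10 were called themselves (0.198% of all genes rose). These 10 are both copies of dlx6, hes4, klf5, msx1 and myt1, so each such pair is counted from both sides. msx1.L and myt1.S, at 0 in both 7.5 hpf controls, passed the filter through their CHX values. dlx5.S is an example of a partner that did not pass: it already had 810 and 344 in the controls, and 1383 and 966 in CHX (1.13 ± 0.53, adjusted p = 0.625). Similarly neurog3.L had 171 and 48 in the controls and 208 and 235 in CHX (1.27 ± 0.81, limma adjusted p = 0.715). In other partners the groups overlapped. foxi1.L had 563 and 118 in the controls and 770 and 410 in CHX (1.12 ± 0.79, limma adjusted p = 0.739). cyp26a1.S had 522 and 197 against 598 and 387 (0.58 ± 0.55, limma adjusted p = 0.807). Whether the copies of a pair differ in their change was not tested.

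A set of genes had no value above 0 in either 7.5 hpf control. This held for 6 of the called higher genes, so no fold is given for them. A gene silent in the controls at both ages passes the filter only when CHX is high, so the filter fixed the direction of such genes. msx1.L, a homeobox gene switched on by BMP, was at 0 and 0 in the controls and at 637 and 418 in CHX, and myt1.S was at 0 and 0 and at 441 and 350. pax3.S, a neural plate border gene, had 188 and 164 in CHX. gmnc.L and mcidas.L, which start the multiciliated cell programme by activating E2F and DP factors, had 304 and 221, and 248 and 166, in CHX. These genes, and hes5.3.L with 169 and 181 in CHX, were at 0 in both controls and at 2 or less at 5 hpf. Further genes that were not called had the same pattern, such as fezf1.L, a forebrain zinc finger gene, at 167 and 156 in CHX (adjusted p = 0.0551), gbx2.2.L at 108 and 58, and id4.S at 71 and 56. The partner of mcidas.L was not silent. mcidas.S had 89 and 47 in the controls, 138 and 76 in CHX and 87 and 62 at 5 hpf, and its groups overlapped (limma adjusted p = 0.758). Of the 27 tested multiciliated cell genes, 2 rose, gmnc.L and mcidas.L, which passed the filter through their CHX values. None of the 27 was called with 0.5 in place of 1 added to the values. Apart and higher were 7 (25.9% against 5.49% of all genes). It was 3 of the 23 with a control mean of at least 12 (13% against 3.25%). Among them was foxj1.L, the regulator of motile cilia, with 39 and 14 in the controls and 282 and 145 in CHX.

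**Figure D2:**
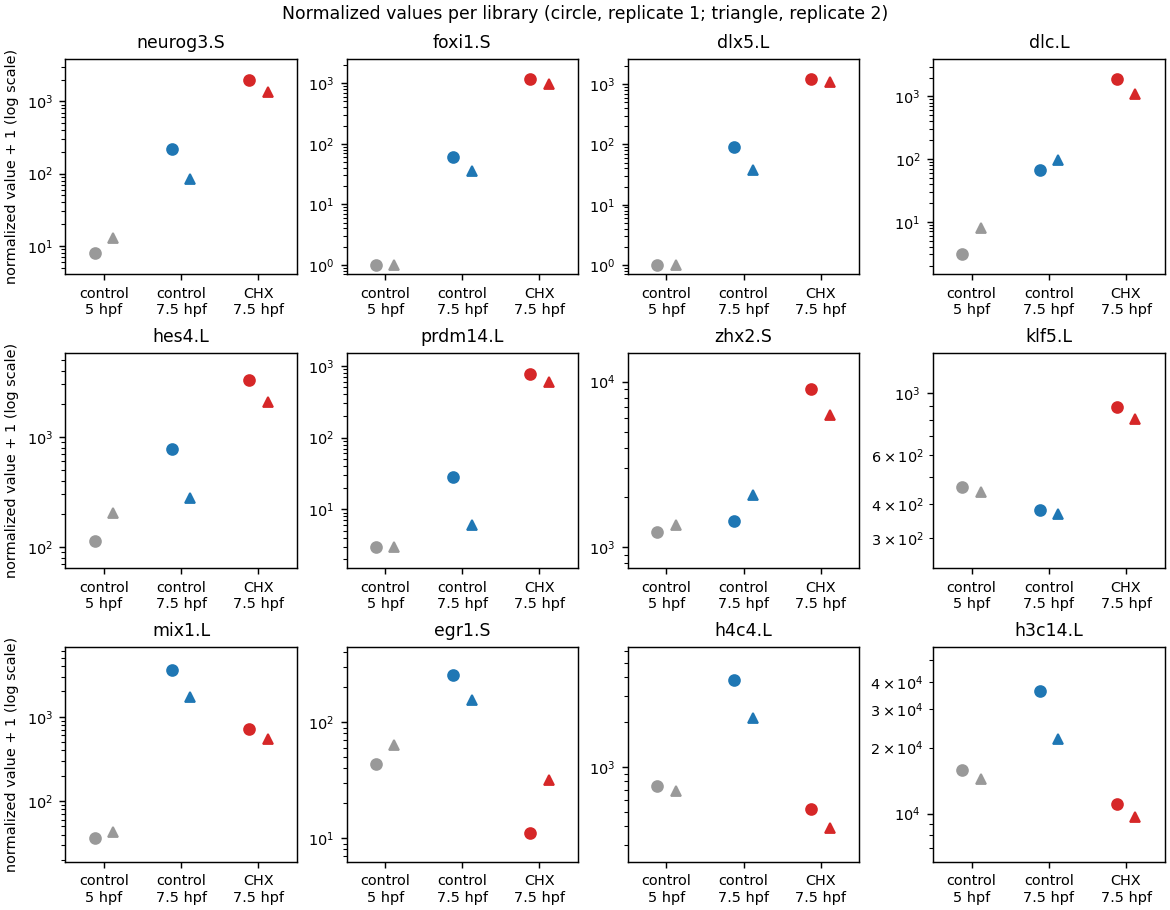
Normalized value plus 1 (log y axis) of 12 called genes in each library: untreated embryos at 5 hpf in grey, controls at 7.5 hpf in blue and CHX at 7.5 hpf in red, with circles for replicate 1 and triangles for replicate 2. In the 8 genes of the upper rows both CHX values lie above both controls, and in mix1.L, egr1.S, h4c4.L and h3c14.L they lie below.

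Notch pathway genes formed another group with most tested members apart and higher. Notch signalling passes between neighbouring cells when Delta or Jagged ligands on the surface of a cell bind the receptor on the next, and its released intracellular part turns on hes repressors. Of 56 listed genes 47 were tested. Of these 7 rose, none fell and 29 were apart and higher (61.7% against 5.49% of all genes). The median was 1.21 over the 47 and 1.09 over the 39 with a control mean of at least 12. Of the 39, 22 were apart and higher (56.4% against 3.25%). Over the 47 it was 1.96 without control replicate 1 and 0.91 without control replicate 2. The 3 hes4 entries count here and among the ectoderm genes. Summed over the list, the controls had 13663 and 9155 and CHX had 30232 and 22907, a ratio of the group means of 2.33.

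Both ligands and targets of the pathway were included. dlc.L, a Delta ligand, had 67 and 97 in the controls and 1909 and 1105 in CHX, a log2 fold change of 4.15 ± 0.55 (limma adjusted p = 0.0153). dll1.L, another, had 92 and 43 against 569 and 515 (3.08 ± 0.53, adjusted p = 0.0358). The receptor gene notch1.L had 217 and 326 in the controls and 572 and 561 in CHX, and jag1.L, a Jagged ligand, had 387 and 243 against 718 and 567; neither passed (adjusted p = 0.317 and 0.186). For these 4 genes the CHX values lay above both controls.

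Among the hes genes, repressors that act downstream of the receptor, hes4.L had 774 and 278 in the controls and 3271 and 2083 in CHX. hes2.L had 194 and 126 against 735 and 509. These rose by 2.49 ± 0.43 and 1.96 ± 0.29 on the log2 scale (limma adjusted p = 0.0358 and 0.0182), and both entries that the table names hes4.S passed as well. The hes5 cluster, of which only hes5.3.L passed, had its other members apart and higher in several cases: hes5.6.L with 6 and 19 in the controls and 269 and 216 in CHX (adjusted p = 0.0746), and hes5.7.L with 101 and 42 against 518 and 297 (adjusted p = 0.312). hes7.1.S had 0 and 13 against 371 and 294, and hes3.S had 8 and 14 against 470 and 272 (adjusted p = 0.0566 and 0.053). Reads of hes5 copies, which lie in tandem, may be split between near-identical entries.

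Of the tested BMP genes, 42 had a positive and 12 a negative log2 fold change, with a smaller median than the Notch genes. BMP ligands pattern the ventral side and the epidermis, and msx and dlx genes are among their targets. Of 54 tested genes 3 rose, all of them msx1 or dlx5 copies. Apart and higher were 16 (29.6% against 5.49% of all genes). The median was 0.42, with 0.74 without control replicate 1 and 0.24 without control replicate 2. Among the 47 with a control mean of at least 12, 10 were apart and higher (21.3% against 3.25%) and the median was 0.28. msx2.L had 9 and 8 in the controls and 240 and 181 in CHX, and gata2.S, an epidermal and blood factor, had 38 and 6 against 363 and 184; neither passed (adjusted p = 0.127 and 0.167). szl.S, the secreted BMP feedback inhibitor sizzled, had 94 and 128 against 386 and 339 (adjusted p = 0.42). No member was apart and lower.

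Genes that rose outside these lists had other roles. zhx2.S, a zinc finger and homeobox repressor, had 1439 and 2079 in the controls and 9010 and 6262 in CHX (2.12 ± 0.21, limma adjusted p = 0.00361), with 1242 and 1356 at 5 hpf. An entry without a symbol, Xelaev18041793m, had the smallest adjusted p of the comparison, 0.00201, with 526 and 733 against 6309 and 4207. cyp26a1.L, which degrades retinoic acid, had 310 and 212 against 1182 and 753, and pbx2.L, a homeobox partner of Hox proteins, had 258 and 308 against 1030 and 708. Both rose, by 1.88 ± 0.27 and 1.60 ± 0.22 (limma adjusted p = 0.0164 and 0.016). Control replicate 2 was above replicate 1 in 3 of these 4 genes.

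Smaller rises were seen for genes already captured at 5 hpf. klf5.L and klf5.S, Krüppel-like factors of epithelia and pluripotent cells, had 378 and 367, and 901 and 885, in the controls and 891 and 804, and 1555 and 1528, in CHX (1.18 ± 0.17 and 0.79 ± 0.14, limma adjusted p = 0.0164 and 0.0358). dsp.S, a copy named after the desmosomal protein desmoplakin but annotated as a long noncoding RNA, rose by 0.99 ± 0.17. It went from 747 and 1018 to 1827 and 1647. Its protein-coding partner dsp.L had 1103 and 1449 against 1562 and 1574 and did not pass (0.31 ± 0.16, limma adjusted p = 0.65). fgfr4.L, an FGF receptor, rose by 1.59 ± 0.22 from 342 and 254 to 965 and 822. For klf5 the 5 hpf values of 460 and 439, and 1140 and 1073, lay between the control and CHX values at 7.5 hpf. In all, 37 of the 38 genes that rose had a CHX mean above their 5 hpf mean.

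Immediate early genes respond to a stimulus without new protein synthesis, and in mammalian cells many are known to be superinduced by cycloheximide. Of 107 tested here, 2 rose, 1 fell and 16 were apart and higher (15% against 5.49% of all genes). Among the 102 with a control mean of at least 12, 13 were apart and higher (12.7% against 3.25%). The median over the 107 was 0.24, with 0.42 without control replicate 1 and -0.0035 without control replicate 2. Without either of the 5 hpf libraries 1 rose and none fell. gadd45g.L, a growth arrest gene, had 160 and 54 in the controls and 1061 and 614 in CHX, and pim1.L, a kinase with an unstable mRNA, had 144 and 125 against 599 and 400. CHX was above control in every pairing of libraries for both (limma adjusted p = 0.0451 and 0.0363), and pim1.L rose by 1.86 ± 0.32 on the log2 scale. Against them, egr1.S, a target of FGF and ERK signalling, fell by 3.41 ± 0.62 on the log2 scale, from 255 and 154 to 10 and 31 (adjusted p = 0.0459), and its partner egr1.L had 412 and 183 against 59 and 40 (adjusted p = 0.629). Of the 50 FGF genes tested, fgfr4.L alone rose, egr1.S alone fell and the median was 0.00. Apart and higher were 7 (14% against 5.49%) and apart and lower 5 (10% against 4.53%). Among the 45 with a control mean of at least 12, these were 4 and 5 (8.89% and 11.1% against 3.25% and 4.7%). spry2.S, an inhibitor of the pathway, had 471 and 185 against 178 and 105, while the receptor gene fgfr2.L had 120 and 67 against 348 and 164 (adjusted p = 0.654 and 0.355).

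Genes of mesoderm and endoderm had mostly lower values in CHX, though a single gene passed the test. Of 39 tested, mix1.L fell and none rose. Apart and lower were 13 (33.3% against 4.53% of all genes) and apart and higher 8 (20.5% against 5.49%), so both shares were above those of all genes. Among the 36 with a control mean of at least 12, these were 13 and 6 (36.1% and 16.7% against 4.7% and 3.25%). mix1.L, a homeobox gene switched on by nodal signals, had 3610 and 1697 in the controls and 725 and 546 in CHX (35 and 42 at 5 hpf), a fall of 1.97 ± 0.32 on the log2 scale (limma adjusted p = 0.0254), a call that was lost without either of the 5 hpf libraries. The CHX values were still more than 10 times those at 5 hpf. Other Mix and Bix genes sat alike: bix1.3.L had 2867 and 1218 against 629 and 444 (adjusted p = 0.0702), bix1.2.L had 4675 and 1498 against 957 and 769 (adjusted p = 0.223), and mixer.S had 850 and 372 against 181 and 53 (adjusted p = 0.338). eomes.S, a T-box activator of mesendoderm, had 2810 and 1266 against 749 and 431 (adjusted p = 0.632). In every one of these control replicate 1 was about 2 to 3 times replicate 2, and the median over the list was -0.56, or -0.22 without control replicate 1 and -0.98 without control replicate 2.

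Members in the opposite direction included gata and mesp factors of endoderm and mesoderm. gata4.S had 64 and 82 in the controls and 330 and 284 in CHX, and mespa.L had 58 and 32 against 219 and 103 (adjusted p = 0.434 and 0.646). Among the nodal ligands and their modulators, 20 were tested, none was called and 6 were apart and lower (30% against 4.53%). These 6 included nodal3.2.L with 505 and 185 against 81 and 62 (limma adjusted p = 0.184). vegt.L, the T-box gene whose maternal product starts the endoderm, had 1604 and 1447 against 1110 and 1051 (adjusted p = 0.286). pou5f3.2.L, an Oct4-class factor of pluripotent cells, had 14675 and 7177 against 5020 and 4231 (adjusted p = 0.131).

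Genes of the Spemann organizer, the dorsal signalling centre, split into 2 directions. Of 44 tested, 1 rose, 12 were apart and higher and 7 apart and lower (27.3% and 15.9% against 5.49% and 4.53% of all genes). Among the 40 members with a control mean of at least 12, 8 and 7 were apart in these directions (20% and 17.5% against 3.25% and 4.7%). Their median was -0.27, in place of 0.33 over the 44. Secreted antagonists of BMP and Wnt were found on both sides. chrd.1.L, chordin, had 555 and 190 in the controls and 47 and 39 in CHX (adjusted p = 0.292), and frzb.S had 260 and 69 against 13 and 6 (adjusted p = 0.341), whereas dkk1.L, a Wnt antagonist, had 22 and 14 against 125 and 66 (adjusted p = 0.61). Several homeobox genes of head and forebrain had higher values. otx2.S rose from 15 and 6 to 810 and 551 (5.98 ± 0.94, limma adjusted p = 0.0235), its partner otx2.L had 91 and 30 against 926 and 547 (adjusted p = 0.0713), and crx.S had 393 and 176 against 2167 and 1362 (adjusted p = 0.0536). gsc.L, the organizer homeobox gene goosecoid, had lower values, at 374 and 147 against 123 and 107 (adjusted p = 0.745).

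**Figure D3:**
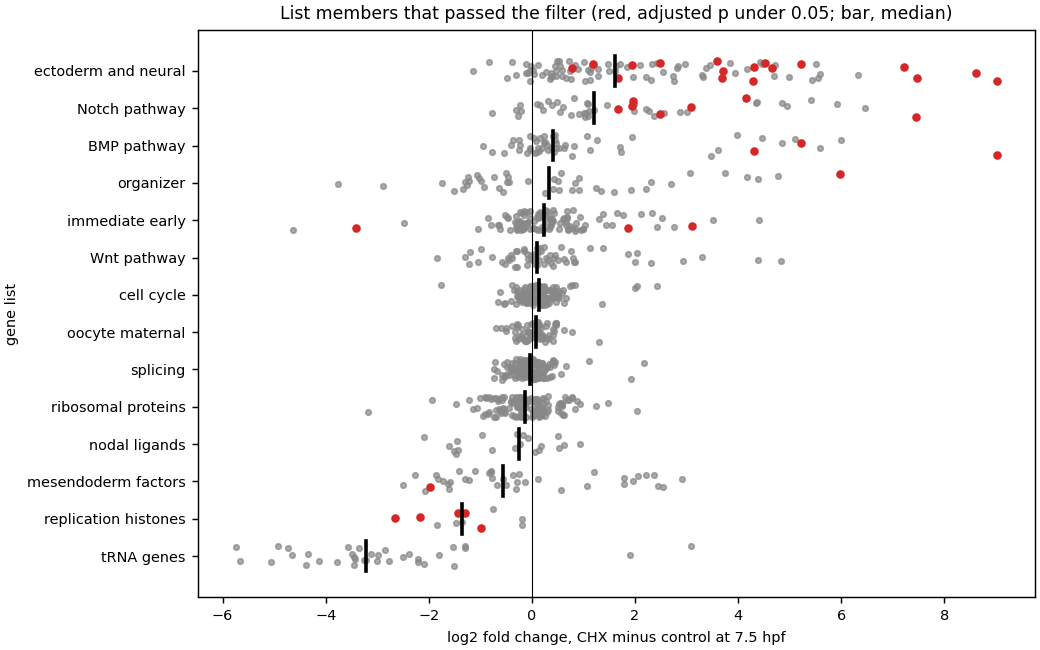
Log2 fold change of CHX against control at 7.5 hpf (x axis) for each tested member of 14 gene lists (y axis), with red points at a limma adjusted p under 0.05, grey points otherwise and a black bar at the median. tRNA entries with identical values are drawn once. The medians run from 1.62 for ectoderm and neural genes to -1.36 for replication histones and -3.21 for tRNA genes.

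Among the 68 genes that fell, 10 had a symbol, and 6 of these were histone genes. Replication-dependent histone genes are transcribed and their mRNAs kept stable while DNA is being copied, and the mRNAs end in a stem-loop in place of a poly(A) tail. All 11 tested genes of this kind had a negative log2 fold change, 5 fell and 7 were apart and lower (63.6%), with a median of -1.36 that ran from -0.95 to -1.75 as each of the 6 libraries was left out; 3 fell without either of the 5 hpf libraries and 8 without control replicate 2. Of all genes tested, 4.53% were apart and lower. h3c14.L had 36125 and 21816 in the controls and 11042 and 9667 in CHX, below its 15773 and 14466 at 5 hpf (-1.44 ± 0.21, limma adjusted p = 0.0182). The largest fall among them was that of h4c4.L, from 3835 and 2119 to 519 and 387, against 742 and 687 at 5 hpf (-2.67 ± 0.25, adjusted p = 0.00361). Summed over the list, the controls had 132812 and 95947, CHX had 51327 and 51964, and the 5 hpf libraries had 64973 and 70506. The CHX replicates thus nearly coincided, below the 5 hpf libraries.

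h2ax.lS, one of several h2ax entries and the only variant histone gene called, fell from 26316 and 16304 to 8971 and 7427 (-1.34 ± 0.22, limma adjusted p = 0.025), while 2 further h2ax entries were apart and lower. The 25 tested genes for processing histone mRNA, among them the stem-loop binding protein and parts of the U7 particle, had no called member. Summed over all 27 listed entries of this kind, the values were 16605 and 15878 in the controls and 16867 and 16984 in CHX. Cell cycle genes, 132 tested, had none called and a median of 0.15. Apart and higher were 2 (1.52% against 5.49% of all genes) and apart and lower 1 (0.758% against 4.53%).

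The other 58 genes that fell carry a locus number without a symbol, and they cluster along the genome. In the gene order of RefSeq's Xenopus_laevis_v10.1 annotation, 55 of the 68 could be placed, and 41 of these (74.5%) lay within 5 places of another gene that fell; 0.859% of all 16883 placed tested genes lie that close to a gene that fell. The 41 formed 12 runs. The longest was 8 neighbouring genes in a row that all fell, h4c1.L among them, and the next was a run of 5. Named histone genes lay within 5 of the 12 runs, which together held 17 of the genes that fell. Every tested gene inside a run that did not pass also had a negative log2 fold change.

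Summed over the longest run, the controls had 30818 and 19180, CHX had 9150 and 8593, and the 5 hpf libraries had 12760 and 14191. The run of 5 had 25106 and 13934 in the controls and 6722 and 7013 in CHX. In a stretch of 128 annotated places around 3 runs on the same chromosome, 67 genes were tested and 18 fell, with a median of -1.76, while the median of the other 49 was -0.06. The split into genes that fell and others fixes the order of these medians, which are given as a description; the other genes reached down to -1.61 (LOC108716541, outside the runs). Near-identical copies may share reads in the authors' counting, so neighbouring values need not be independent, and no product is named for these loci in the tables used here.

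**Figure D4:**
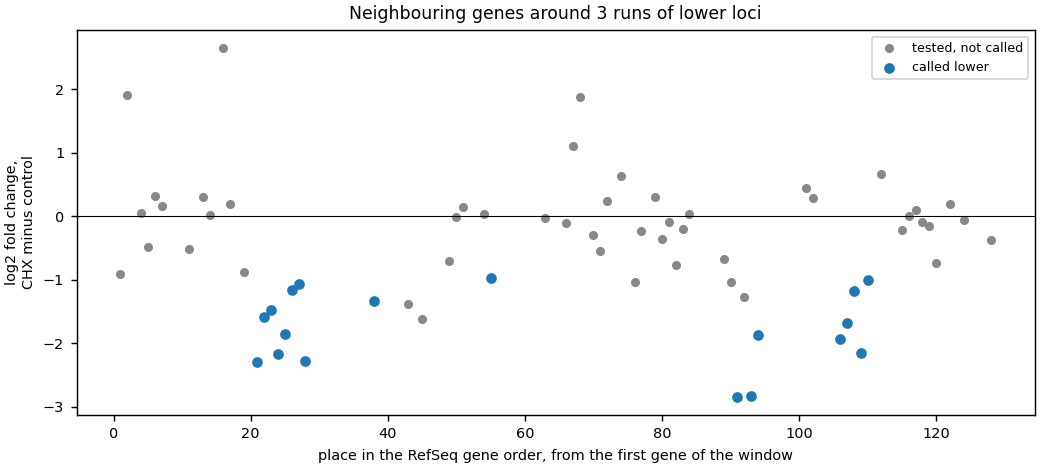
Log2 fold change of CHX against control at 7.5 hpf (y axis) for the tested genes in a stretch of the RefSeq gene order (x axis, place counted from the first gene of the window), around 3 runs of genes that fell. Blue points fell and grey points did not pass; the blue points lie between -0.97 and -2.85, most of them in the 3 runs and 2 alone, and the grey points have a median of -0.06.

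Single loci of this kind reached high values. LOC108705162 had 46998 and 23149 in the controls, 4672 and 2837 in CHX and 4042 and 3171 at 5 hpf. It fell by 3.18 ± 0.31 on the log2 scale (limma adjusted p = 0.00361), and its CHX values lay around those at 5 hpf. LOC108705992 had 40892 and 29767 in the controls and 13202 and 13091 in CHX, below its 18469 and 19173 at 5 hpf (-1.41 ± 0.17, adjusted p = 0.00926). LOC108719085 was at 0 in both 5 hpf libraries, and had 1153 and 755 in the controls and 72 and 19 in CHX (-4.61 ± 0.78, adjusted p = 0.0332). Of the 68 genes that fell, 53 had a CHX mean below the 5 hpf mean and 15 above it.

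The 4 remaining named genes that fell were mix1.L, egr1.S, fam32a.L and nemf.L. nemf.L, which tags unfinished protein chains on stalled ribosomes, had 4956 and 4324 in the controls and 2980 and 2486 in CHX, against 3602 and 3595 at 5 hpf (-0.77 ± 0.14, limma adjusted p = 0.0449). The calls of nemf.L, egr1.S, fam32a.L and mix1.L held in 7, 6, 10 and 11 of the 19 alternative settings, in that order. fam32a.L had 1456 and 1541 against 825 and 714 (-0.96 ± 0.15, adjusted p = 0.0233). In fam32a.L the control replicates lay close together, with replicate 2 slightly higher. It was the only exception: in the other 67 of the 68 genes that fell, control replicate 1 was above control replicate 2. CHX replicate 1 was above CHX replicate 2 in 49 of the 68. Over all 68, the median log2 ratio of replicate 1 to replicate 2 was 0.73 in the controls and 0.18 in CHX. The median change of the 68 was -1.60, -1.18 without control replicate 1 and -2.06 without control replicate 2. The part of the replicate difference in these falls was not tested.

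tRNA genes, copied by RNA polymerase III and not by polymerase II, had the lowest median of all lists, a list taken up after its values were seen. Of 787 entries, 320 were above 0 somewhere, of which 194 had distinct values. Counting identical entries once, their sum was 69 and 18 at 5 hpf, 8203 and 2866 in the controls and 1435 and 631 in CHX. Among the 35 distinct entries that passed the filter, 30 were apart and lower (85.7% against 4.53% of all genes) and the median log2 fold change was -3.21. Being near 0 at 5 hpf and low in CHX, these entries passed the filter through their control values, and with no filter the median over all 320 entries above 0, copies included, was -1.12. None passed in limma, with a smallest adjusted p of 0.0713 and 20 at an unadjusted p under 0.05. Control replicate 1 was above replicate 2 in 31 of the 35, and leaving out each of the 6 libraries in turn moved the median over all 55 tested entries between -2.77 and -3.77.

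Sums by anticodon show the values behind these entries. Valine tRNA genes with the anticodon UAC had summed values of 686 and 236 in the controls and 38 and 18 in CHX, and isoleucine tRNA genes with AAU had 276 and 178 against 50 and 24. Glutamine tRNA genes with CUG had overlapping groups, with 213 and 153 in the controls and 154 and 14 in CHX. Standard library preparation catches tRNAs poorly. Identical copies, and reads of a longer transcript over the same locus, cannot be told apart from a tRNA gene's own product in these values.

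The small nuclear RNAs rnu2 and rn7sk did not go alike: rnu2 was apart and lower and rn7sk was not. rnu2, the U2 RNA of the spliceosome, had 3521 and 1762 in the controls, 906 and 421 in CHX and 16 and 7 at 5 hpf (-2.01 ± 0.46, limma adjusted p = 0.134). rn7sk, the polymerase III transcript that holds back the elongation factor P-TEFb, had 1482 and 760 against 971 and 649, so that CHX replicate 1 lay between the controls (-0.42 ± 0.30, adjusted p = 0.743). Both were picked after their values were seen.

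**Figure D5:**
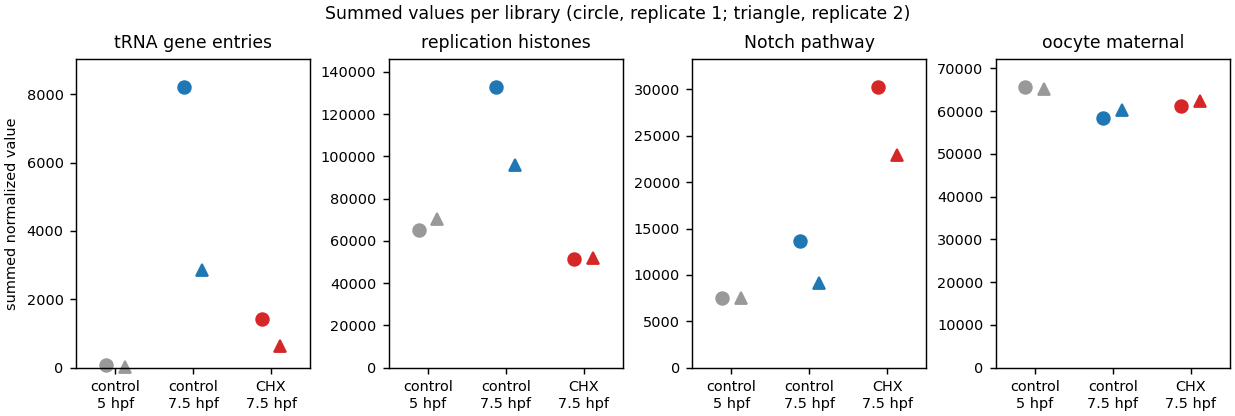
Summed normalized value per library (linear y axis from 0) of tRNA gene entries with identical entries counted once, replication histones, Notch pathway genes and oocyte maternal genes, with circles for replicate 1 and triangles for replicate 2. The tRNA and histone sums are lower in CHX than in either 7.5 hpf control, the Notch sums are higher, and the oocyte sums lie between 58403 and 65581 in all 6 libraries.

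Lists of genes for the machinery that cycloheximide acts on had small median changes. None of the 140 ribosomal protein genes, 92 ribosome biogenesis genes, 84 translation factor genes or 33 aminoacyl-tRNA synthetase genes tested was called. Their medians were -0.13, 0.02, 0.02 and 0.08. Of all genes tested, 0.554% were called, and at that share a list of this size holds few calls or none. Apart and higher were 1, 0, 2 and 1 genes of these lists (0.714%, 0%, 2.38% and 3.03% against 5.49% of all genes). Apart and lower were 6 ribosomal protein genes (4.29% against 4.53%) and none of the others. Genes of mRNA decay, 128 tested, and hosts of RNAs that are destroyed when translated, 50 tested, had none called either, with medians of 0.04 and -0.04. Splicing genes (139 tested), polymerase II genes (139) and ubiquitin and proteasome genes (93) had none called and medians of -0.04, 0.06 and 0.00. A test that misses the threshold in 2 against 2 libraries does not show that these genes kept their level.

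Of the 84 tested genes listed for early zygotic activation, 2 rose (0.198% of all genes did), both of them the klf5 copies given above. The median over the list was 0.09. Apart and higher were 5 (5.95% against 5.49% of all genes), and 1 was apart and lower (1.19% against 4.53%). Among 64 Wnt genes none was called. Apart and higher were 10 (15.6% against 5.49%) and apart and lower 2 (3.12% against 4.53%). Among the 62 with a control mean of at least 12, 8 were apart and higher (12.9% against 3.25%). An example is fzd10.S with 45 and 12 against 319 and 178 (limma adjusted p = 0.467). Of 82 stress genes gadd45g.L alone rose, which is also counted among the immediate early genes. None of the 82 was called with 0.5 in place of 1 added to the values. Apart and higher were 6 (7.32% against 5.49%) and apart and lower 1 (1.22% against 4.53%). The 76 tested oocyte genes, which serve as a reference for material carried over from the egg, had none called and a median of 0.08. Summed over all 83 listed oocyte entries, the values were 58403 and 60201 in the controls and 61183 and 62245 in CHX.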

How the data were processed

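RNA labelled with 5-ethynyl uridine was captured from 6 embryo pools, 3 groups of 2, as the labels' protocols describe, with ribosomal RNA depleted. The deposited values are a score in the sense used here: reads per gene that the authors quantified with Salmon 0.12.0 and normalized with DESeq2, per the submitters' processing notes, and rounded to whole numbers. Genome build, annotation, strand setting and the role of each tool: not given in the sources used here. Since depth before normalization is unknown, no counting interval or detection limit is given and no count model was run. Normalization of this kind assumes that most genes do not change, so a shift shared by all genes would not be seen.

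Values were taken as log2(value + 1) for the 19149 genes with a mean of at least 12 over the 6 libraries, and limma 3.58.1 (R 4.3.3) was fitted to the 3 groups with an intensity trend and Benjamini-Hochberg adjustment (threshold 0.05). The 5 hpf libraries enter the estimate of spread. On data simulated for this comparison with 19149 genes, 24.3% of genes changed 2-fold, 65% of those changed 4-fold and 74.2% of those changed 8-fold were recovered. Of the calls, 10.3% were false, above the threshold of 0.05. The simulated noise was normal, with the same spread in every group for a given gene. The real control replicates differed more than the CHX replicates, so these rates need not hold for the real calls. "Apart" means that both CHX values lie on the same side of both controls with a 2-fold ratio of group means (value plus 1). Tables were handled with Python 3.11.15 and pandas 2.3.3.

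The comparison, the 28 gene lists and the genes named were chosen with earlier results of these data known, so no adjusted p is given over a list alone. Genes were named by size of change (12 in each direction), as the called list members with the smallest adjusted p, as the 8 most abundant called loci without a symbol, and as L or S partners; tRNA, rnu2, rn7sk and other genes were chosen after their values were seen. RefSeq's Xenopus_laevis_v10.1 table matched 32082 of the 50489 entries (63.5%) and was used only for gene type and for which genes are neighbours. Names of 1256 extra entries repeat another entry's. A list of primary miRNAs matched no entry. Scaling, pseudocount, filter, weights, trend, the libraries in the fit, a replicate block and leaving out each library were varied.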

Additional observations from a re-analysis of the deposited data

How the results depend on the processing

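The counts of genes called by limma, 38 higher and 68 lower, moved with the settings. All 106 called genes kept their direction under all 19 alternatives, many of which leave a gene's log2 fold change as it is. The 4 libraries at 7.5 hpf alone gave 72 and 44, a pseudocount of 0.5 gave 23 and 49, and a pseudocount of 5 gave 109 and 111. With no filter on low values 0 passed in either direction (2318 at an unadjusted p under 0.05), and with no intensity trend 42 rose and 5 fell. Leaving out each of the 6 libraries gave 0 to 100 higher and 0 to 104 lower, the 0 without control replicate 1 or either CHX library; the lone library is then assumed to vary like the other groups. Rescaling to equal totals, by median ratios or on oocyte transcripts gave 33 to 39 higher and 65 to 68 lower and moved the median of all genes by less than 0.1.

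Adding the replicate number as a block gave 62 and 105, and as a block in the 4 libraries at 7.5 hpf alone 416 and 366. Over the genes tested, libraries of the same number deviated together with a correlation of 0.13 between 7.5 hpf controls and CHX. It was 0.00795 between both control ages and -0.0198 between 5 hpf controls and CHX. Spread particular to each library lowers such a value, so it does not decide whether the 7.5 hpf libraries are paired. The main fit used no pairing. Some of the named genes that were not called turned direction. rn7sk did so, to 0.063 without control replicate 1, with -0.90 without control replicate 2 as its lowest value. cyp26a1.S and foxi1.L turned slightly negative without control replicate 2. The causes of these moves were not tested.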
